A study of Mus musculus with 10 samples.

Results

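The plasma proteins of the complement and coagulation systems were followed here as 44 genes of the 18055 genes listed in any library. The members were taken from a fixed list of gene symbols and were split by known role into 17 complement components, 14 genes of coagulation, the contact system, plasminogen and thrombopoietin, 3 fibrinogen genes, and 10 inhibitors and regulators. RNA sequencing was done on primary hepatocytes from C57BL/6 mice. The labels name DMEM with 10% FBS as the medium, and by the study's methods the cells were kept overnight in DMEM without serum before they were treated. There were 5 groups of 2 libraries: Vehicle, PA (palmitate, 200 μM), LA (linoleate, 12 μM), and each of these free fatty acids (FFAs) after NTP (PA+NTP and LA+NTP). NTP (neurotropin, a drug for chronic pain made from inflamed rabbit skin) was given at 0.4 NU/mL starting 1 h before the FFA, and FFA exposure lasted 24 h. How many animals the cells were pooled from is not given in the sources used here. Replicates are known only by their numbers in the labels, so the p-values measure the spread between these libraries, which may be technical.

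Hepatocytes make most of the complement and clotting proteins of plasma and secrete them as inactive precursors. Complement is a cascade of proteases that starts from antibody, from sugars on microbes or spontaneously, splits C3 and ends in a pore of C5 to C9 in the target membrane. Coagulation is a cascade of serine proteases that ends in thrombin, which turns fibrinogen into fibrin, while plasmin dissolves the clot and a set of plasma inhibitors, many of them serpins, limits each protease.

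Depth, as the sum of expected counts in a library, was 18795990 and 26900384 for Vehicle 1 and 2, 13142588 and 39052570 for PA, 30743849 and 31901493 for PA+NTP, 32312383 and 23696170 for LA, and 35959385 and 60046937 for LA+NTP. Expected counts are estimates by RSEM of the reads that belong to a gene, and FPKM scales them by transcript length and library depth, which allows genes of different length to be compared. The expected counts of all 10 libraries were fitted together with edgeR's quasi-likelihood test, and a gene was called when its Benjamini-Hochberg adjusted p over the 14097 tested genes was under 0.05 and its fold change was at least 1.5. Below, adjusted p and standard errors (SE) of log2 fold changes are from this fit. The fit gives no SE itself. Each SE was derived as the absolute log2 fold change divided by the square root of the test's F statistic. Of the 44 members, 43 passed the filter on low counts. The member left out was Cfd (factor D, the protease that starts the alternative complement pathway), with 34 counts in all 10 libraries together.

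The libraries of a group did not always lie close together for these genes. In each group most of the 43 tested members had a higher FPKM in replicate 1 than in replicate 2: 37 in Vehicle, 37 in PA, 40 in PA+NTP, 34 in LA and 40 in LA+NTP. PA+NTP differed from the other groups in size, with a median log2 ratio of 0.41 and 11 members at least 1.5-fold apart, against 3.89% of all tested genes. In the other groups the median log2 ratio was 0.07 for Vehicle, 0.18 for PA, 0.08 for LA and 0.13 for LA+NTP, and at most 2 members differed by that much. The median over all tested genes lay between -0.01 and 0.01 in each group. The members called in PA+NTP against PA and against Vehicle are therefore given with and without each PA+NTP library. Other values that involve PA+NTP, those of genes that are not members included, are from all 10 libraries, and the part of this spread in them was not tested.

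**Figure D1:**
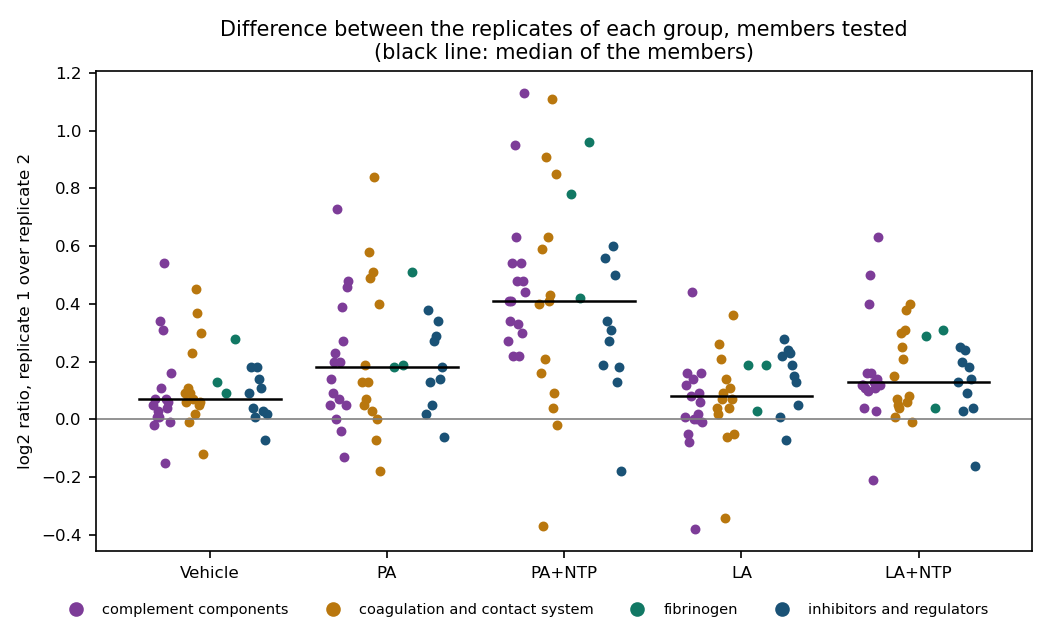
The log2 ratio of CPM in replicate 1 over replicate 2 is plotted for each tested member in the 5 groups, colored by role, 1 point per member. Most points lie above 0 in every group, with a median of 0.41 in PA+NTP and of 0.07 in Vehicle.

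By mean FPKM over the 10 libraries, Fgb was the most abundant member at 1057, followed by C3 (684), Cpb2 (540), Kng1 (297), Serping1 (271) and Cfb (265). The lowest tested members were F8 at 1.02, C8g at 2.73 and Klkb1 at 3.01. Factor VIII is made mostly by endothelial cells, and the FPKM of Cfd, which is made mostly by fat cells, did not pass 0.22 in any library. The summed FPKM of all members was 5224 and 5012 in Vehicle, 4838 and 4445 in PA, 5604 and 4394 in PA+NTP, 5287 and 5113 in LA, and 5544 and 5211 in LA+NTP. The PA+NTP replicates gave both the highest and the lowest of these sums, which are dominated by the most abundant genes.

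The effect of PA on the members was asked first. With PA, 1 of the 43 tested members was called as higher than in Vehicle and 9 as lower, beside 6.00% of all tested genes called as higher (846) and 8.92% called as lower (1257). The members called as lower were the inhibitors and regulators Serpinf2, Serpind1, Serpinc1, Proc and Vtn, the complement genes Masp1 and C8b, and the coagulation genes Klkb1 and Plg, and the 1 called as higher was Cpb2. The median log2 fold change was -0.25 over the members and -0.01 over all tested genes, and 33 members lay below 0. Among the 10 inhibitors and regulators the median was -0.52, with 1 gene called as higher and 5 as lower. The 16 tested complement components had a median of -0.23 and the 14 coagulation genes one of -0.26, with 2 genes of each called as lower. In whole cultures, fewer cells of a type and less RNA per cell cannot be told apart.

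Serpinf2 (gene ID 18816, chromosome 11 from 75431736 to 75439501 in GRCm38.p6) encodes α2-antiplasmin, the main inhibitor of plasmin. Its FPKM was 80.4 and 74.7 in Vehicle, 37.7 and 30 in PA, 65.7 and 45.4 in PA+NTP, 66.1 and 58.1 in LA, and 110 and 96.8 in LA+NTP. Both PA libraries lay below all others, both LA+NTP libraries lay above all others, and the LA pair lay under the Vehicle pair without overlap. Serpinf2 fell with PA by 1.18 on the log2 scale (SE 0.14, adjusted p = 1.69e-05), and this was the largest decrease among the members. Serpind1 (gene ID 15160, chromosome 16 from 17331371 to 17343574) encodes heparin cofactor II, an inhibitor of thrombin. For Serpind1 the FPKM was 54.6 and 49.6 in Vehicle, 28 and 23.1 in PA, 31 and 20 in PA+NTP, 59.6 and 50.9 in LA, and 54.3 and 50.9 in LA+NTP. The 4 libraries that received PA lay at 31 or below, and the other 6 at 49.6 or above. Serpind1 fell with PA by 1.01 (SE 0.15, adjusted p = 9.6e-05).

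Serpinc1 (gene ID 11905, chromosome 1 from 160978583 to 161002543) encodes antithrombin, which blocks thrombin and factor X once bound to heparin. Its FPKM was 43.1 and 38 in Vehicle, 23.4 and 19.6 in PA, 29.2 and 23.0 in PA+NTP, 41.5 and 35.1 in LA, and 53.0 and 44.8 in LA+NTP. As for Serpind1, the 4 libraries with PA were the lowest, at 29.2 or below. The decrease of Serpinc1 with PA was -0.90 (SE 0.13, adjusted p = 6.01e-05). Of the 31-base sequences of Serpinc1, 58.9% also occur in transcripts of Zbtb37 on the opposite strand, and since the sources used here do not say whether strand was used in counting, its counts are uncertain. Outside the rule for named genes, Proc and Vtn were added after their values were seen. Proc encodes protein C, which once activated cleaves factors V and VIII, and its FPKM was 109 and 107 in Vehicle, 65.3 and 59.5 in PA, 88.0 and 78.6 in PA+NTP, 97.0 and 87.2 in LA, and 124 and 113 in LA+NTP. Vtn (gene ID 22370, chromosome 11 from 78499120 to 78502325) encodes vitronectin, which binds the membrane pore of complement, and its FPKM was 52.0 and 50.7 in Vehicle, 33.0 and 30.4 in PA, 52.2 and 40.4 in PA+NTP, 48.5 and 40.0 in LA, and 70.7 and 61.3 in LA+NTP. For both genes the PA libraries were the lowest of the 10 and the LA+NTP libraries the highest. Proc fell with PA by 0.76 (SE 0.08, adjusted p = 4.14e-06) and Vtn by 0.67 (SE 0.11, adjusted p = 0.000301).

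Cpb2 was the member that rose with PA. Cpb2 (gene ID 56373, chromosome 14 from 75242287 to 75283555) encodes carboxypeptidase B2, also called thrombin-activatable fibrinolysis inhibitor, which trims fibrin so that plasminogen binds it less well. Its FPKM was 403 and 399 in Vehicle, 717 and 754 in PA, 581 and 646 in PA+NTP, 529 and 509 in LA, and 408 and 455 in LA+NTP. The PA pair was the highest, the PA+NTP pair came next, the LA pair after that, and Vehicle and LA+NTP lay lowest. The log2 fold change of Cpb2 with PA was 0.91 (SE 0.07, adjusted p = 6.8e-07). Without the GC trend it was 0.66 and was still called. C4bp (gene ID 12269, chromosome 1 from 130635921 to 130661657) encodes the C4b-binding protein, which limits the classical and lectin pathways. The FPKM of C4bp was 46.8 and 41.6 in Vehicle, 38 and 29.3 in PA, 31.7 and 21.0 in PA+NTP, 60.1 and 51.6 in LA, and 48.5 and 40.6 in LA+NTP. The PA libraries lay below Vehicle and the LA libraries above it, with no overlap, but neither difference passed the test (log2 fold change -0.38, SE 0.16, adjusted p = 0.0691 with PA and 0.39, SE 0.16, adjusted p = 0.0594 with LA). For Serping1, the C1 inhibitor, PA gave a log2 fold change of -0.34 (adjusted p = 0.00223), below the fold threshold.

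**Figure D2:**
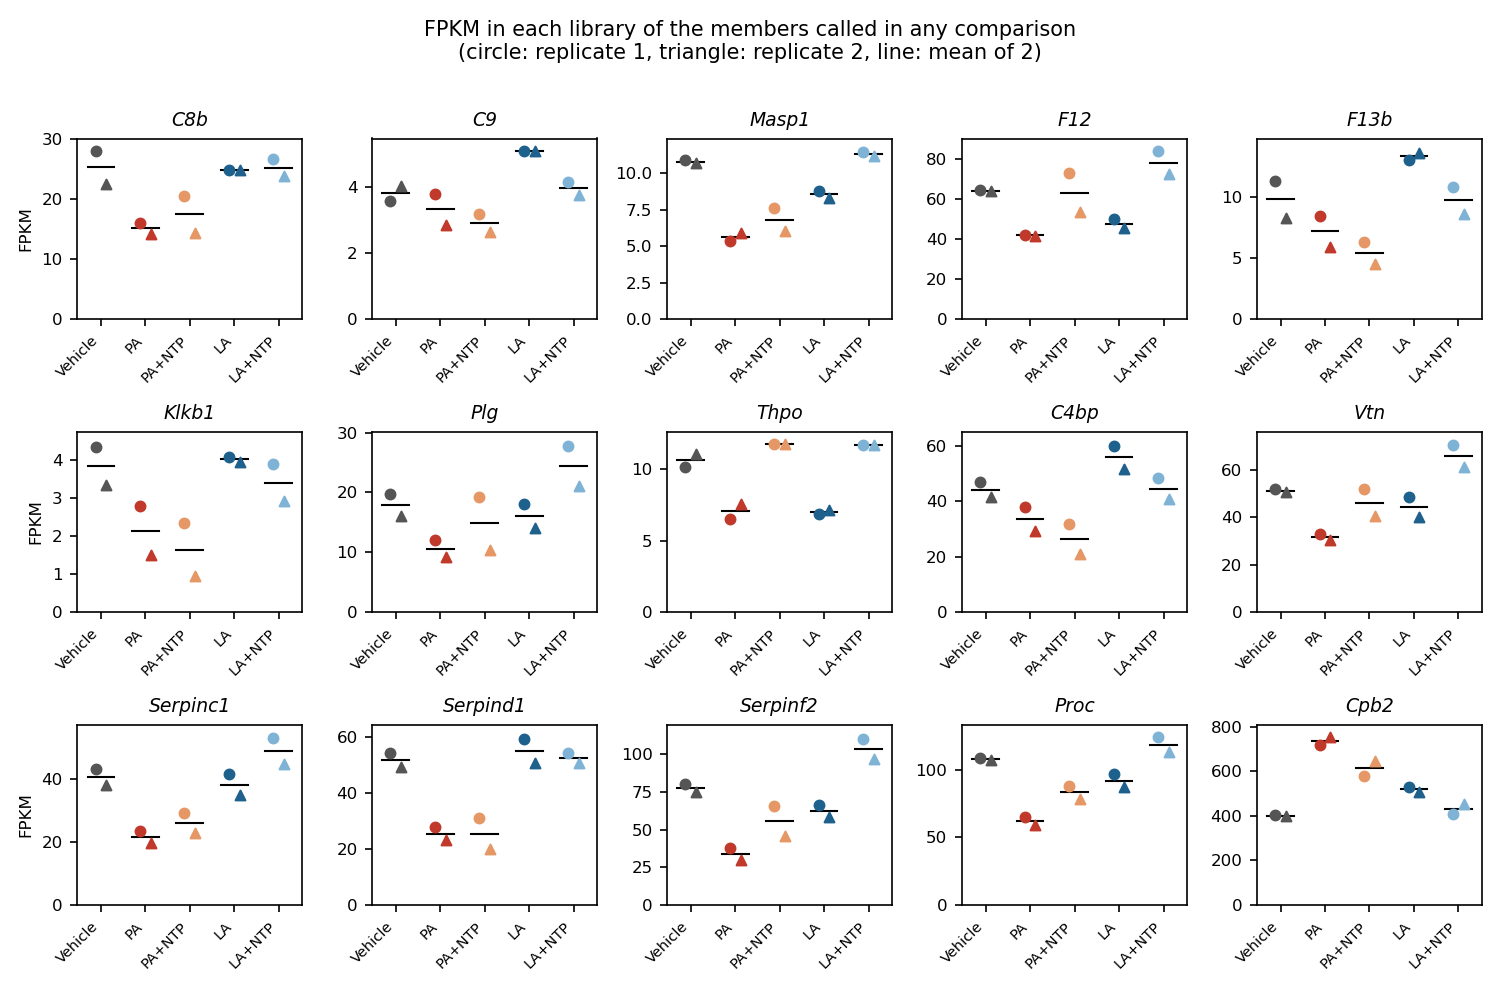
FPKM is plotted on a linear axis from 0 for the 15 members called in any comparison, with a circle for replicate 1, a triangle for replicate 2 and a line at the mean of each of the 5 groups. Serpind1 lies at 31 or below in the 4 libraries that received PA, and Cpb2 is highest with PA, at 717 and 754.

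Among the complement components, Masp1 and C8b fell with PA. Masp1 (gene ID 17174, chromosome 16 from 23451785 to 23521240) encodes a protease that binds the mannose-binding lectins and starts the lectin pathway. The FPKM of Masp1 was 10.9 and 10.7 in Vehicle, 5.36 and 5.93 in PA, 7.60 and 6.01 in PA+NTP, 8.82 and 8.29 in LA, and 11.5 and 11.2 in LA+NTP. All 4 libraries with PA lay under both LA libraries, which lay under Vehicle. Masp1 fell with PA by 0.88 (SE 0.10, adjusted p = 1.36e-05). C8b (gene ID 110382, chromosome 4 from 104766317 to 104804548) encodes the β chain of C8, a part of the membrane pore. The FPKM of C8b was 28 and 22.6 in Vehicle, 16.1 and 14.1 in PA, 20.6 and 14.4 in PA+NTP, 24.8 and 24.9 in LA, and 26.7 and 23.8 in LA+NTP. The libraries with PA were again the lowest, at 20.6 or below. The decrease with PA was -0.73 (SE 0.14, adjusted p = 0.000741). Without Vehicle 1 it was -0.57 (adjusted p = 0.0147) and C8b was no longer called.

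C3 (gene ID 12266, chromosome 17 from 57203967 to 57228136), on which all complement pathways meet, had an FPKM of 755 and 753 in Vehicle, 630 and 552 in PA, 865 and 635 in PA+NTP, 591 and 612 in LA, and 750 and 695 in LA+NTP. Its log2 fold change was -0.32 with PA (SE 0.10, adjusted p = 0.022) and -0.28 with LA (SE 0.10, adjusted p = 0.0438), under the fold threshold in each case. C9 (gene ID 12279, chromosome 15 from 6445346 to 6498825), whose copies line the membrane pore, had an FPKM of 3.59 and 4.03 in Vehicle, 3.80 and 2.86 in PA, 3.19 and 2.65 in PA+NTP, 5.09 and 5.08 in LA, and 4.16 and 3.76 in LA+NTP. Both LA libraries of C9 lay above the other 8. Mbl1 (gene ID 17194, chromosome 14 from 41151456 to 41163904), a mannose-binding lectin, had an FPKM of 5.01 and 5.06 in Vehicle, 6.91 and 4.91 in PA, 8.75 and 3.61 in PA+NTP, 8.57 and 7.62 in LA, and 9.24 and 5.77 in LA+NTP. The replicates of Mbl1 lay far apart in PA+NTP, where they spanned the Vehicle pair, and its log2 fold change with PA was 0.21 (SE 0.35, adjusted p = 0.654). The remaining 11 tested complement components were not called in any comparison.

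In the coagulation group, Klkb1 and Plg were called with PA, and both calls were unstable. Klkb1 (gene ID 16621, chromosome 8 from 45266688 to 45294835) encodes prekallikrein of the contact system. The FPKM of Klkb1 was 4.35 and 3.33 in Vehicle, 2.79 and 1.49 in PA, 2.33 and 0.95 in PA+NTP, 4.07 and 3.95 in LA, and 3.88 and 2.92 in LA+NTP. The PA libraries lay below Vehicle, with a wide gap between the replicates. The log2 fold change of Klkb1 with PA was -0.91 (SE 0.34, adjusted p = 0.0395), and the call was lost without Vehicle 1 (-0.70, adjusted p = 0.211), Vehicle 2 (-1.09, adjusted p = 0.0557), PA 2 (-0.41, adjusted p = 0.46), LA 1 (-0.91, adjusted p = 0.0593) or LA 2 (-0.91, adjusted p = 0.0576), with DESeq2 (adjusted p = 0.184) and with limma on log2(FPKM + 1) (0.0704) and log2(FPKM + 0.1) (0.088). Of its 31-base sequences, 43.2% also occur in Gm45753 on the same strand, so its counts are uncertain. Plg (gene ID 18815, chromosome 17 from 12378609 to 12419384) encodes plasminogen, and its FPKM was 19.8 and 16.1 in Vehicle, 12.0 and 9.17 in PA, 19.2 and 10.4 in PA+NTP, 18.1 and 14.1 in LA, and 27.8 and 21.0 in LA+NTP. The PA pair of Plg lay below Vehicle, and the PA+NTP replicates overlapped both. For Plg the log2 fold change with PA was -0.75 (SE 0.23, adjusted p = 0.0171), and its call was lost without Vehicle 1 (-0.60, adjusted p = 0.126) or PA 2 (-0.53, adjusted p = 0.208), with DESeq2 (-0.72, adjusted p = 0.0865) and without the GC trend (-0.66, adjusted p = 0.0515).

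Thpo (gene ID 21832, chromosome 16 from 20724454 to 20734511) encodes thrombopoietin, the hormone of platelet formation. The FPKM of Thpo was 10.2 and 11.1 in Vehicle, 6.55 and 7.55 in PA, 11.8 and 11.8 in PA+NTP, 6.87 and 7.14 in LA, and 11.7 and 11.7 in LA+NTP. The 4 libraries with an FFA alone lay between 6.55 and 7.55 and the other 6 between 10.2 and 11.8. Thpo differed from Vehicle by -0.54 with PA (SE 0.09, adjusted p = 0.000245) and by -0.56 with LA (SE 0.09, adjusted p = 0.0002), and both changes stayed under the fold threshold. It passed that threshold with PA without Vehicle 1 (-0.60) or PA 2 (-0.66) and in limma on log2(FPKM + 0.1) (-0.59), and with LA without Vehicle 1 (-0.62), in limma on log2(FPKM + 0.1) (-0.60) and with library-size scaling (-0.61). F12 (gene ID 58992, chromosome 13 from 55417958 to 55426804), chosen after its values were seen, encodes factor XII, which starts the contact pathway, and its FPKM was 64.3 and 63.9 in Vehicle, 42.1 and 41.6 in PA, 72.8 and 53.6 in PA+NTP, 50.1 and 45.4 in LA, and 83.9 and 72.4 in LA+NTP. The libraries with an FFA alone lay at 50.1 or below and all others at 53.6 or above. For F12 the change with PA was -0.58 (SE 0.11, adjusted p = 0.000603), just under the fold threshold, and it passed without PA 1 (-0.60), Vehicle 2 (-0.59) or LA 2 (-0.59), with library-size scaling (-0.62), no filter (-0.59) or only the groups compared (-0.60), and in limma on log2(FPKM + 1) (-0.60) and log2(FPKM + 0.1) (-0.62).

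F13b (gene ID 14060, chromosome 1 from 139501547 to 139523758) encodes the carrier subunit of factor XIII, the enzyme that crosslinks fibrin. The FPKM of F13b was 11.3 and 8.24 in Vehicle, 8.42 and 5.89 in PA, 6.31 and 4.52 in PA+NTP, 13 and 13.6 in LA, and 10.8 and 8.6 in LA+NTP. The LA libraries were the highest, the lowest single value was in PA+NTP, and PA overlapped Vehicle. For F13b the PA value was -0.46 on the log2 scale (SE 0.19, adjusted p = 0.0647), which was called without PA 1 (-0.69, adjusted p = 0.0186) or Vehicle 2 (-0.68, adjusted p = 0.0258) and without the GC trend (-0.81, adjusted p = 0.00702), where C4bp was also called (-0.75, adjusted p = 0.00372). Kng1 (gene ID 16644, chromosome 16 from 23058220 to 23082078) encodes kininogen, the cofactor of the contact system and source of bradykinin, and was the most abundant coagulation gene. The FPKM of Kng1 was 297 and 288 in Vehicle, 263 and 279 in PA, 259 and 246 in PA+NTP, 365 and 339 in LA, and 325 and 308 in LA+NTP. Its 2 LA libraries were the highest, and the libraries with PA lay below Vehicle. With PA its log2 fold change was -0.08 (SE 0.06, adjusted p = 0.32). Kng1 and Kng2 share 27.7% and 29.0% of their 31-base sequences with each other, so the split of reads between them is uncertain.

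The 3 fibrinogen genes lie next to each other on chromosome 3, and none of them was called in any comparison. Fga (gene ID 14161, from 83026153 to 83033627), the α chain, had an FPKM of 111 and 102 in Vehicle, 116 and 104 in PA, 159 and 89.2 in PA+NTP, 121 and 106 in LA, and 139 and 112 in LA+NTP. Fgb (gene ID 110135, from 83042246 to 83049863), the β chain, had 1135 and 1074 in Vehicle, 981 and 864 in PA, 1107 and 810 in PA+NTP, 1199 and 1171 in LA, and 1132 and 1101 in LA+NTP. Fgg (gene ID 99571, from 83007724 to 83015056), the γ chain, had 82.8 and 68.7 in Vehicle, 83.9 and 59.1 in PA, 110 and 55.2 in PA+NTP, 92.0 and 80.8 in LA, and 104 and 84.0 in LA+NTP. For Fga and Fgg the PA+NTP replicates gave both the highest and the lowest value of all 10 libraries. For Fgb the PA pair lay below the Vehicle pair, but the log2 fold change of -0.23 (SE 0.10, adjusted p = 0.0898) did not pass the test. With PA the log2 fold change was 0.06 for Fga (SE 0.18, adjusted p = 0.794) and -0.06 for Fgg (SE 0.23, adjusted p = 0.847).

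With PA, Masp1, Serpinc1, Serpind1, Serpinf2 and Cpb2 were called in each of the 21 alternatives except the NOISeq rule, which called 0 members in each comparison it was run on. Of all 18055 genes, that rule called 5 as higher and 1 as lower with PA. Its 0 is therefore not read as a result about the members. With the GC trend removed, Vtn (-0.43, adjusted p = 0.0106) and Proc (-0.47, adjusted p = 0.000463) lost their calls on the fold threshold. C6 was called with PA without PA 1 (-0.89, adjusted p = 0.0433). The summed FPKM of hepatocyte markers was also lower with PA, with 8 of 8 markers detected and none at 0, and sums of 3598 and 3435 in Vehicle, 2729 and 2516 in PA, 3284 and 2985 in PA+NTP, 3509 and 3484 in LA, and 4226 and 4022 in LA+NTP. Albumin (Alb) was the most abundant, at 2594 and 2529 in Vehicle and 2124 and 1929 in PA, with a log2 fold change of -0.30 (adjusted p = 0.0016), and it made up most of each sum. Of the other 7, Apoa1, Ttr and Hnf4a were called as lower with PA (-1.32, -0.94 and -0.73). Cps1 (-0.32, adjusted p = 0.268), Tat (-0.22, adjusted p = 0.503), Apob (0.00, adjusted p = 1) and Cyp2e1 (0.18, adjusted p = 0.18) were not called, and the FPKM of Cyp2e1 was higher in PA (20 and 20.7) than in Vehicle (18.9 and 18.0) without overlap. The part of the lower markers in the members' result was not tested.

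The same question was asked of LA. With LA, 0 of the 43 members were called by edgeR, beside 3.53% of all tested genes called as higher (498) and 7.11% called as lower (1002). At an unadjusted p under 0.05 there were 21 members, beside 6872 of all 14097 tested genes. DESeq2 called 0 members, limma 0 on log2(FPKM + 1) and 1 on log2(FPKM + 0.1), which was Thpo. Without the fold threshold 15 members passed, beside 2938 of all tested genes as higher and 2886 as lower. Of these members, C9, Cpb2, F13b, F5, F8, F9, Hc, Kng1, Kng2 and Pros1 lay higher and C3, F12, Masp1, Serping1 and Thpo lower. The median log2 fold change was 0.12 over the members and -0.01 over all tested genes, and 29 members lay above 0. Among members with a negative value under PA, Kng1 had a log2 fold change of 0.31 (SE 0.06, adjusted p = 0.000842), F13b of 0.50 (SE 0.18, adjusted p = 0.0352) and C9 of 0.46 (SE 0.16, adjusted p = 0.0367). With the same sign under LA as under PA, Cpb2 had 0.42 (SE 0.07, adjusted p = 0.000379), Masp1 -0.28 (SE 0.10, adjusted p = 0.0316) and F12 -0.38 (SE 0.11, adjusted p = 0.0116). The serpins with the largest decreases under PA had small values under LA, with -0.27 for Serpinf2 (SE 0.14, adjusted p = 0.125), 0.13 for Serpind1 (adjusted p = 0.495) and -0.03 for Serpinc1 (SE 0.12, adjusted p = 0.858). Both comparisons use the same Vehicle libraries. Members were called with LA when 1 library was left out: F13b (0.74, adjusted p = 0.0178) and Thpo (-0.62, adjusted p = 0.00128) without Vehicle 1, F8 (0.63, adjusted p = 0.0163) without LA 2, and Mbl1 without PA+NTP 1 (0.75, adjusted p = 0.0155) or PA+NTP 2 (0.75, adjusted p = 0.0148), where Mbl1 had 0.73 (SE 0.33, adjusted p = 0.0899) in all 10 libraries.

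Whether the FFAs differed from each other was tested directly, in PA against LA. Of the 43 members, 8 were called as lower with PA than with LA and 0 as higher, beside 2.04% (288) and 1.18% (167) of all tested genes. For the count of 0, DESeq2 and limma also called 0 members as higher with PA. At an unadjusted p under 0.05 in either direction there were 24 members, beside 3492 of all 14097 tested genes. The median log2 difference was -0.39 over the members and 0.01 over all tested genes, and 39 of the 43 members lay below 0. By role, 4 of the 10 inhibitors and regulators were called (median -0.54), 3 of the 16 complement components (median -0.37), 1 of the 14 coagulation genes (median -0.39) and 0 of the 3 fibrinogen genes (median -0.30, with 1 gene, Fgb, at an unadjusted p under 0.05 and 0 called by DESeq2 or limma). These medians stayed below 0 in every alternative. Markers also differed between the FFAs. Of the 8 hepatocyte markers (median -0.45), Apoa1 (-1.44) and Ttr (-1.04) were called as lower with PA than with LA, and of the 8 stellate cell markers (median -0.30) Lrat (-1.33) and Reln (-0.75). Of the 6 Kupffer cell markers tested (median 0.53), Marco (2.34) and Cd68 (0.78) were called as higher and Cd5l (-1.11) as lower. The median was -0.12 over the endothelial and -0.44 over the cholangiocyte markers, none of which was called by edgeR, with 3 of each list at an unadjusted p under 0.05, and no other tool was run on them. The part of these markers in the members' result was not tested.

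The 8 members called in PA against LA included 3 serpins. Serpind1 differed by -1.14 (SE 0.15, adjusted p = 0.000268), the largest value among the members, Serpinf2 by -0.91 (SE 0.14, adjusted p = 0.000974) and Serpinc1 by -0.87 (SE 0.13, adjusted p = 0.000578), and for each the PA and LA libraries did not overlap. These 3 calls held in all alternatives except the NOISeq rule. C4bp differed by -0.77 (SE 0.16, adjusted p = 0.00702), and its call was lost without PA 2 (-0.57, adjusted p = 0.128) or LA 1 (-0.65, adjusted p = 0.0869). F13b differed by -0.96 (SE 0.18, adjusted p = 0.00435), which was lost without PA 2 (-0.67, adjusted p = 0.115). Among complement genes, C8b differed by -0.75 (SE 0.14, adjusted p = 0.00342), C9 by -0.67 (SE 0.17, adjusted p = 0.0205) and Masp1 by -0.60 (SE 0.10, adjusted p = 0.00213). The C8b call was lost without PA 2 (-0.64, adjusted p = 0.0803). For C9 it was lost without PA 2 (-0.43, adjusted p = 0.257), LA 1 (-0.67, adjusted p = 0.1) or LA 2 (-0.67, adjusted p = 0.0766) and in limma on log2(FPKM + 1) (-0.50). For Masp1 it was lost on the fold threshold without PA 1 (-0.55) or LA 1 (-0.56) and in limma on log2(FPKM + 1) (-0.52). Proc lay just under the fold threshold (-0.58, SE 0.08, adjusted p = 0.000282), and Cpb2 had the opposite sign (0.49, SE 0.07, adjusted p = 0.000615). The members called without PA 2 were Masp1, Serpinc1, Serpind1 and Serpinf2. Over all tested genes, too, fewer were called without PA 2 or without LA 1 than with all 10 libraries. Other members were gained without single libraries, C6 without PA 1 (-1.25), LA+NTP 1 (-0.89) or either PA+NTP library (-0.92 and -0.92), Klkb1 without PA 1 (-1.45) or either PA+NTP library (-1.05 and -1.05), Plg without either PA+NTP library (-0.67 and -0.67), Mbl2 without PA 1 (-0.64), Vtn without LA 2 (-0.64) and Proc without PA 1 (-0.65), LA 2 (-0.66), LA+NTP 2 (-0.59) or either PA+NTP library (-0.59 and -0.59).

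**Figure D3:**
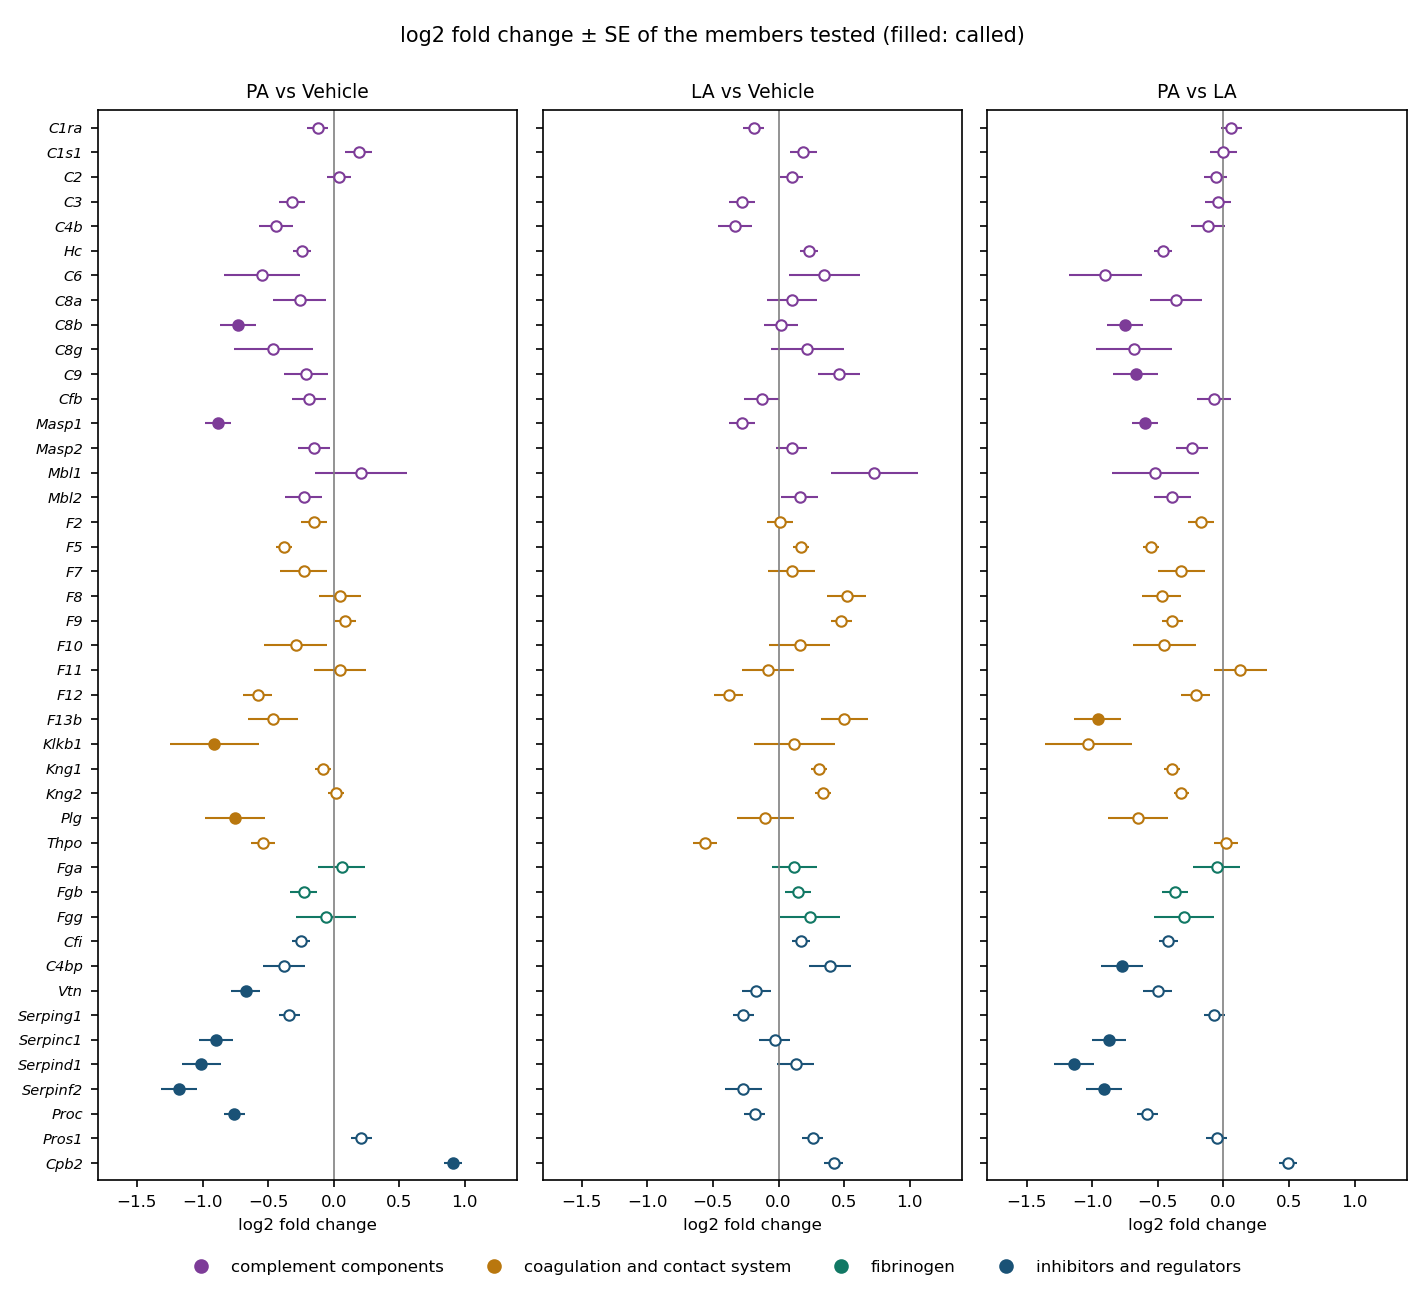
The log2 fold change of each of the 43 tested members is shown as a point with its standard error for PA against Vehicle, LA against Vehicle and PA against LA, colored by role and filled where called. With PA, 10 members are filled, with LA 0, and in PA against LA 8, all of them below 0.

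Promoter sequences were looked at because 8 members differed in 1 direction between PA and LA. A RefSeq promoter of GRCm38.p6 was matched for 35 of the 44 members, 38 promoters in all, and the 250 bases before each start were searched on both strands. C2, C4b, Cfb, Cfi, Kng1, Masp1, Plg and Serping1 had no entry. Proc was left out of the search, so whether it has an entry or holds these letters was not tested. The letters searched were chosen after the values were seen: TTNNGCAA, an element of C/EBP factors, and CAAAGTCCA, an element of HNF4. TTNNGCAA occurred in 9 of the 38 promoters (23.7%) and in 9.6% of the 32851 promoters of the same length, and CAAAGTCCA in 0 of 38 and 0.4%. A match is a description of the letters and not a site, and the absence of a match says only that these letters are not in this window. The sequences show C9, which was called as lower with PA than with LA and holds TTNNGCAA, Fgb, the most abundant member, which also holds it, and Serpind1 and Cpb2, which moved in opposite directions with PA and hold neither element. Capitals mark the matches, on either strand, and each sequence runs 5′ to 3′ on the strand of its gene. They lie at chr15:6445096-6445345 (plus strand) for C9, chr3:83049864-83050113 (minus) for Fgb, chr16:17331121-17331370 (plus) for Serpind1 and chr14:75242037-75242286 (plus) for Cpb2.
C9: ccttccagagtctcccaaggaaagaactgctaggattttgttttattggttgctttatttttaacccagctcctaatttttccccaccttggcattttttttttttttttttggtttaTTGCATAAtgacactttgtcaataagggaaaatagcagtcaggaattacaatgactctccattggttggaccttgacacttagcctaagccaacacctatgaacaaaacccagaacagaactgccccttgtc
Fgb: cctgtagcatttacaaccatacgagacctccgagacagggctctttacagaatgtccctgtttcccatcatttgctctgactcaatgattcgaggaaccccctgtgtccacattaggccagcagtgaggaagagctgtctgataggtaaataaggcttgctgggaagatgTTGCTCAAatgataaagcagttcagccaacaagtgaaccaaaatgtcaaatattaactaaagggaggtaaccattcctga
Serpind1: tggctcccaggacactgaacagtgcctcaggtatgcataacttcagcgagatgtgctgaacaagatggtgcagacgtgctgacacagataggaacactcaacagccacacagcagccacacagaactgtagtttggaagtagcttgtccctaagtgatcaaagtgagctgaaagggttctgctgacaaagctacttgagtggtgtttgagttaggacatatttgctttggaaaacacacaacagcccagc
Cpb2: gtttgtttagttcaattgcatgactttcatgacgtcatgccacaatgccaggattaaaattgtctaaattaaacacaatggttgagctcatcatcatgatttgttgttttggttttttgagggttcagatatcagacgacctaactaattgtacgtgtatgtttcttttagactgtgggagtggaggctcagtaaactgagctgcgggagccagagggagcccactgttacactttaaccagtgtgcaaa

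The TTNNGCAA match began at position -132 in C9 and at -80 in Fgb, counted back from the start of the gene. The other members with these letters were C1s1, C3, F11, F9, Fga, Klkb1 and Kng2. Of the 8 members called in PA against LA, C9 held TTNNGCAA, C4bp, C8b, F13b, Serpinc1, Serpind1 and Serpinf2 held neither element, and Masp1 had no promoter entry.

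The effect of NTP was asked within each FFA. In PA+NTP against PA, 2 of the 43 members were called as higher and 0 as lower, beside 8.74% (1232) and 5.11% (721) of all tested genes. DESeq2 and limma also called 0 members as lower, and 19 members had an unadjusted p under 0.05 in either direction, beside 7211 of all 14097 tested genes. Thpo rose by 0.67 (SE 0.09, adjusted p = 3.87e-05) and Serpinf2 by 0.67 (SE 0.14, adjusted p = 0.0014). The median log2 fold change was 0.05 over the members and 0.01 over all tested genes, with 23 members above 0. Of the 8 stellate cell markers (median 0.32), Col1a1 (0.72) and Pdgfrb (0.78) were called as higher. Also called as higher were Cd5l (0.65) of 6 Kupffer cell markers tested (median 0.39) and Sox9 (0.66) of 4 cholangiocyte markers (median 0.14). The hepatocyte and endothelial medians were 0.08 and -0.04, with 0 called by edgeR and 5 and 3 at an unadjusted p under 0.05. The part of these markers in the members' result was not tested. No direction is read from the role groups, since without PA+NTP 1 the median of the complement components went from 0.13 to -0.21 and that of the inhibitors and regulators from 0.10 to -0.07. F12 (0.54, SE 0.11, adjusted p = 0.00109), Serping1 (0.53, adjusted p = 7.05e-05) and Vtn (0.49, adjusted p = 0.00276) stayed under the fold threshold, as did C4b (0.53, adjusted p = 0.00386), C8g had 0.51 (SE 0.29, adjusted p = 0.176), and Serpind1 (-0.05, SE 0.15, adjusted p = 0.834) and Cpb2 (-0.32, SE 0.07, adjusted p = 0.0023) showed no called change. The call of Serpinf2 was lost without PA 2 (0.49, adjusted p = 0.0431) or PA+NTP 1 (0.41, adjusted p = 0.0138). Without PA+NTP 1, 4 members were called, Thpo as higher and C4bp (-0.69), F13b (-0.64) and Klkb1 (-1.09) as lower. Without PA+NTP 2, 10 were called, F8 as lower (-0.68) and Thpo, Serpinf2, F12 (0.71), Plg (0.81), Vtn (0.64), Serping1 (0.64), Cfb (0.60), F10 (0.69) and C4b (0.76) as higher. C4b was also called without PA 1 (0.64), and C4bp (-0.60) and F13b (-0.71) without PA 2.

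In LA+NTP against LA, 3 of the 43 members were called as higher and 0 as lower, beside 11.7% (1651) and 7.57% (1067) of all tested genes. For the count of 0, DESeq2 and limma also called 0 members as lower. At an unadjusted p under 0.05 there were 23 members, beside 8001 of all 14097 tested genes. The 3 members were Thpo, up by 0.70 (SE 0.09, adjusted p = 1.23e-05), Serpinf2 by 0.69 (SE 0.13, adjusted p = 0.000585) and F12 by 0.67 (SE 0.11, adjusted p = 0.000117). The median log2 fold change was -0.04 over the members and 0.01 over all tested genes. Of the 8 stellate cell markers (median 0.39), Col1a1 (0.84) and Des (0.73) were called as higher. Also called as higher were Apoa1 (0.65) of 8 hepatocyte markers (median 0.05) and Stab1 (0.83) of 8 endothelial markers (median 0.32). The Kupffer cell and cholangiocyte medians were 0.32 and 0.26, with 0 called by edgeR and 1 of each list at an unadjusted p under 0.05. The part of these markers in the members' result was not tested. Plg (0.55, SE 0.22, adjusted p = 0.0464) and Vtn (0.53, adjusted p = 0.000917) lay higher under the fold threshold, and F13b (-0.51, SE 0.17, adjusted p = 0.0223), C9 (-0.40, SE 0.16, adjusted p = 0.0417) and C4bp (-0.37, SE 0.15, adjusted p = 0.0538) lay lower. F12 lost its call without LA+NTP 1 (0.56), where F13b was called as lower (-0.67). Without LA+NTP 2, 5 members were called, with Plg (0.74) and Vtn (0.63) added. Vtn was added also without LA 1 (0.68), and F8 as lower without LA 2 (-0.65).

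The changes with NTP followed the base composition of the transcripts. The GC content of the members ran from 39.0% in F9 to 58.5% in F12 around a median of 48.1%, against 50.1% for all tested genes. Across the 43 members Spearman's rho between GC content and the log2 fold change was 0.819 in PA+NTP against PA and 0.825 in LA+NTP against LA, and across 14016 tested genes it was 0.574 and 0.676. With PA and with LA against Vehicle rho over the members was -0.30 and -0.722, and over all genes -0.52 and -0.637. These values are across genes, which share their libraries and are not independent replicates. The genes called with NTP were GC-rich members, Thpo at 54.5%, Serpinf2 at 55.0% and F12 at 58.5%, and at the other end F9 (39.0%), F8 (39.1%), C4bp (41.0%) and F13b (41.4%) had negative values with NTP under either FFA. With each library's trend over GC content taken out by a loess curve, edgeR called 0 members with NTP under PA and 0 under LA. Of all 14097 tested genes, it then called 564 as higher and 287 as lower under PA, and 519 and 284 under LA. In these fits the values for Thpo were 0.45 (adjusted p = 0.00187) and 0.42 (adjusted p = 0.00248). For Serpinf2 they were 0.43 (adjusted p = 0.0382) and 0.38 (adjusted p = 0.0502), and for F12 with LA+NTP the value was 0.13 (adjusted p = 0.355). In PA against LA rho was 0.217 over the members and 0.079 over all genes. Without the trend 9 members were called there, all as lower with PA, beside 159 of all tested genes as higher and 284 as lower. The part of base composition in these results was not otherwise tested.

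**Figure D4:**
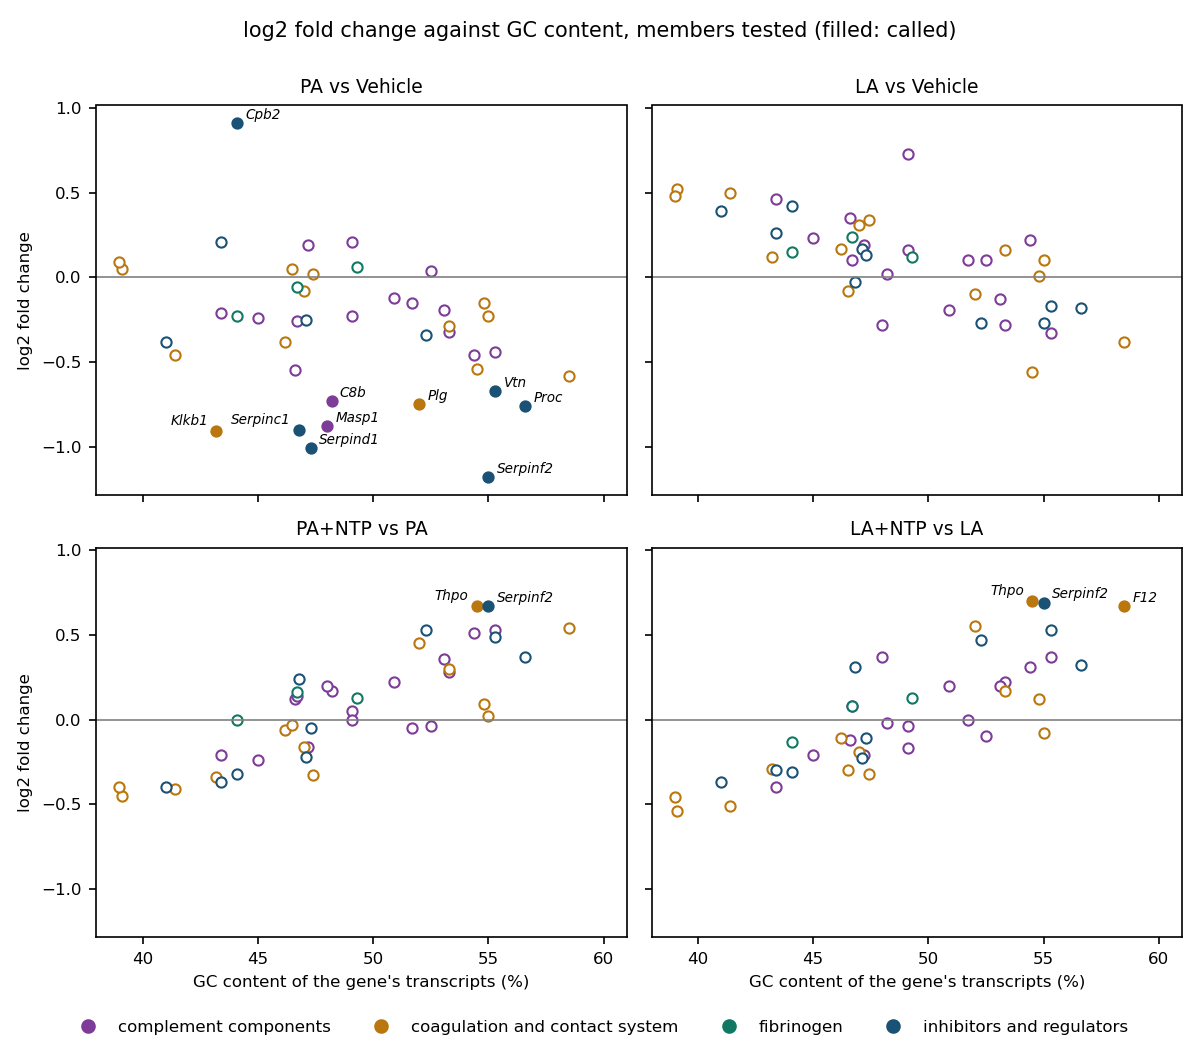
The log2 fold change of each tested member (vertical axis) is plotted against the GC content of its transcripts in percent for PA and LA against Vehicle and for NTP under each FFA, colored by role and filled where called. With NTP the points climb from F9 at 39.0% to F12 at 58.5% (rho 0.819 with PA and 0.825 with LA), and the genes called with PA lie between 43.2% (Klkb1) and 56.6% (Proc).

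What still differed from Vehicle with NTP was asked last. In PA+NTP against Vehicle, 1 member was called as higher and 6 as lower, beside 1.21% (171) and 1.64% (231) of all tested genes. Cpb2 lay higher (0.59, SE 0.07, adjusted p = 0.000159), and Klkb1 (-1.25, SE 0.33, adjusted p = 0.0262), Serpind1 (-1.06, SE 0.15, adjusted p = 0.000448), F13b (-0.87, SE 0.19, adjusted p = 0.00919), C4bp (-0.77, SE 0.16, adjusted p = 0.00695), Masp1 (-0.69, SE 0.10, adjusted p = 0.000578) and Serpinc1 (-0.66, SE 0.12, adjusted p = 0.00355) lay lower. The median was -0.21 over the members and 0.01 over all tested genes, and for the inhibitors and regulators it was -0.43. Of the 6 Kupffer cell markers tested (median 0.62), Marco (2.66) and Adgre1 (1.16) were called as higher. Apoa1 (-0.99) was called as lower among the 8 hepatocyte markers (median -0.50), and Kdr (-0.68) among the 8 endothelial markers (median -0.27). The stellate and cholangiocyte medians were -0.07 and 0.09, with 0 called by edgeR and 2 and 1 at an unadjusted p under 0.05. The part of these markers in the members' result was not tested. Removal of the GC trend left the same 7 members called, beside 170 of all tested genes as higher and 227 as lower. Without PA+NTP 1 there were 11 calls, with C8b (-0.80), Plg (-0.78), Serpinf2 (-0.77) and C6 (-0.98) added and Klkb1 at -2.00. Without PA+NTP 2 there were 2, Serpind1 (-0.80) and F8 (-0.63), with Masp1 at -0.55, F13b at -0.67, C4bp at -0.53, Serpinc1 at -0.52, Klkb1 at -0.76 and Cpb2 at 0.48. Without Vehicle 1 there were 3, Cpb2, Masp1 and Serpind1, with F13b at -0.63 (adjusted p = 0.131), C4bp at -0.68 (adjusted p = 0.0819), Serpinc1 at -0.57 (adjusted p = 0.0585) and Klkb1 at -1.05 (adjusted p = 0.193). Without Vehicle 2, C8b was gained (-0.70, adjusted p = 0.0268) and Klkb1 lost (-1.44, adjusted p = 0.072), and Klkb1 was also lost with DESeq2 (-1.26, adjusted p = 0.08) and limma on log2(FPKM + 1) (-0.92, adjusted p = 0.0627) and log2(FPKM + 0.1) (-1.29, adjusted p = 0.0666). Cpb2 sat at the fold threshold and dropped to 0.58 without Vehicle 2, PA 1, PA 2, LA 1, LA 2 or LA+NTP 2 and in the fit of only the groups compared.

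In LA+NTP against Vehicle, 0 of the 43 members were called by edgeR, beside 0.0567% (8) and 0.0355% (5) of all tested genes called as higher and lower. At an unadjusted p under 0.05 there were 5 members, beside 2014 of all 14097 tested genes. DESeq2, limma on either scale and the NOISeq rule also called 0 members. The median was 0.07 over the members and 0.00 over all tested genes, and 34 members lay above 0. Of the 8 hepatocyte markers (median 0.12), Apoa1 was called as higher (0.77). Serpinf2 had 0.42 (adjusted p = 0.171), Vtn 0.37 (adjusted p = 0.145), Serpinc1 0.28 (adjusted p = 0.306), Serpind1 0.02 (adjusted p = 0.97) and Cpb2 0.11 (adjusted p = 0.544).

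A direct test of whether the NTP effect differed between LA and PA called 0 members and 0% of all tested genes with edgeR, and 0 members and 1029 genes had an unadjusted p under 0.05. DESeq2 and limma on either scale also called 0 members. The differences of the members ran from -0.27 to 0.17 on the log2 scale with a median of -0.05. A gene called with NTP under 1 FFA only, such as F12, is therefore not shown to respond differently under the other.

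The rest of the pathway was followed in lists of genes that are not members. Of 28 further complement genes, 27 were listed in some library and 22 were tested, and C7 was listed in none. Their summed FPKM was 10828 and 10516 in Vehicle, 6402 and 6015 in PA, 9140 and 8547 in PA+NTP, 8131 and 7880 in LA, and 11308 and 10862 in LA+NTP, nearly all of it from Clu (clusterin, an inhibitor of the membrane pore), which fell with PA by 0.76 (adjusted p = 6.56e-07) from 10643 and 10340 to 6229 and 5852. With PA, Clu, C1qc, Cfp and C5ar2 were called as lower and Itgam as higher, with LA Cfhr2 as higher and C1qc, Cfp and C5ar2 as lower. Some of these calls rest on few counts. C1qc had 25 and 36 in Vehicle, 3 and 11 in PA and 16 and 8 in LA, and Itgam had 5 and 8 in Vehicle and 16 and 47 in PA. Cfhr2, a factor H-related protein, stood out with LA, at 64.9 and 46.8 FPKM against 30.2 and 29.1 in Vehicle, 34.6 and 25.7 in PA, 24.3 and 16.3 in PA+NTP, and 38.8 and 32.1 in LA+NTP. The log2 fold change of Cfhr2 with LA was 0.96 (SE 0.18, adjusted p = 0.000624), and it was called as lower with PA than with LA (-0.93, adjusted p = 0.00423). C5ar2, a receptor for C5a, had an FPKM of 1.45 and 1.06 in Vehicle, 0.02 and 0.13 in PA, 1.17 and 1.64 in PA+NTP, 0.16 and 0.18 in LA, and 1.14 and 1.57 in LA+NTP. Its log2 fold change was -3.58 with PA (adjusted p = 1.07e-05), -2.87 with LA (adjusted p = 3.61e-05), 3.73 with PA+NTP against PA (adjusted p = 6.19e-06) and 3.02 with LA+NTP against LA (adjusted p = 7.54e-06), on 1 and 18 counts in PA and 18 and 14 in LA. With NTP, C5ar2, C1qc and Cfp were called as higher under both FFAs and Cfhr2 as lower under both. C1qb was called as higher under LA, on 15 and 18 counts in LA and 49 and 77 in LA+NTP. Colec10 was called as lower under PA, on 0 and 17 counts in PA and 1 and 0 in PA+NTP, which overlap. In PA+NTP against Vehicle, Itgam and C3ar1 were called as higher.

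Of 24 further genes of coagulation and fibrinolysis, 19 were tested and 5 were called as lower with PA: Proz (-1.43, adjusted p = 0.000211), Serpina5 (-1.43, adjusted p = 0.0123), Hrg (-1.14, adjusted p = 0.000184), Plat (-0.91, adjusted p = 1.14e-05) and Habp2 (-0.60, adjusted p = 1.1e-05). With LA 0 of the 19 were called by edgeR, with 5 at an unadjusted p under 0.05 and a median of 0.09, and no other tool was run on these lists. In PA against LA, Proz (-1.38), Plat (-1.04), Hrg (-0.80) and Serpina10 (-0.62) were called as lower. Plat, which encodes tissue plasminogen activator, had an FPKM of 7.09 and 7.25 in Vehicle, 3.51 and 3.88 in PA, 5.06 and 5.77 in PA+NTP, 7.62 and 7.66 in LA, and 10.7 and 10.5 in LA+NTP. With NTP, Hrg (0.95 under PA and 0.83 under LA) and Proz (0.76 and 0.59) were called as higher under both FFAs, and Plau (-0.68) was called as lower in PA+NTP than in Vehicle. Of the 5 genes of the vitamin K cycle and factor export, 0 were called by edgeR in each comparison, with at most 4 at an unadjusted p under 0.05, and their medians ran from -0.24 to 0.25.

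Among regulators known to act on genes of this kind, Hnf4a was called as lower with PA. Hnf4a had 67.0 and 66.5 in Vehicle, 37.2 and 41.6 in PA, 49.2 and 45.5 in PA+NTP, 54.4 and 57.6 in LA, and 71.1 and 69.4 in LA+NTP. Its log2 fold change was -0.73 with PA (adjusted p = 1.4e-06) and -0.52 in PA against LA (adjusted p = 0.000163, under the fold threshold). Cebpb was called as higher with PA than with LA (0.73, adjusted p = 0.00336) and as lower with NTP under PA (-0.68, adjusted p = 0.000834), and Cebpd as higher in PA+NTP than in Vehicle (1.03, adjusted p = 0.0201). The part of these regulators in the members' values was not tested.

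Markers of other liver cells were given as whole lists, since C1q genes and F8 are made by other cells than hepatocytes. Of the 8 Kupffer cell markers all were listed, Cd68 was the most abundant, Clec4f, Csf1r, Vsig4 and Timd4 were under an FPKM of 1 in every library, and the sums were 208 and 208 in Vehicle, 202 and 238 in PA, 267 and 296 in PA+NTP, 126 and 130 in LA, and 182 and 196 in LA+NTP. The 8 sinusoidal endothelial markers, led by Cdh5, summed to 43.4 and 44.0, 32.0 and 34.1, 35.1 and 39.6, 33.3 and 36.1, and 45.4 and 46.4 in the same order of groups. The 8 stellate cell markers, led by Dcn, summed to 27.8 and 28.6, 22.9 and 23.0, 26.7 and 26.7, 26.9 and 25.9, and 29.7 and 30.4, with Lrat, Reln and Pdgfrb under 1. The 5 cholangiocyte markers, led by Spp1, summed to 616 and 583, 529 and 407, 704 and 569, 678 and 637, and 692 and 664, with Krt19, Krt7 and Epcam under 1. Of the 5 neutrophil markers 0 were listed in any library, and of the 5 platelet markers 4 were, with Gp9 listed in none and sums between 0.65 and 1.5 FPKM, led by Itga2b. With PA, 5 of the 8 stellate markers were called as lower (Acta2, Col1a1, Lrat, Pdgfrb and Reln, -0.62 to -1.10), with a median of -0.63 over the list, while Dcn had 0.02. The endothelial list had a median of -0.39 with PA and 1 of 8 called as lower (Stab1, -0.61), and the cholangiocyte list a median of -0.44 with 1 of 4 tested genes called as lower (Krt19, -1.22). Of the 6 Kupffer cell markers tested, Marco was called as higher with PA (2.46) and Cd5l as lower (-1.11), while Cd68 had 0.11, and the median was 0.10. With LA the medians were -0.10 for the stellate, -0.23 for the endothelial, 0.05 for the cholangiocyte and -0.15 for the Kupffer cell list, with Col1a1 (-0.74), Stab1 (-0.79) and Cd68 (-0.67) called as lower. The part of other cells in the members' results was not tested.

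Some members share part of their sequence with neighbors or copies, and their counts are uncertain to an extent that was not tested. The share of 31-base sequences found in other genes was 81.9% for Cfb and 59.7% for C2 (both with Gm20547), 59.6% for C1ra (C1rb), 58.1% for Masp2 (Tardbp, opposite strand), 51.9% for C1s1 (C1s2), 48.8% for C4b (C4a), 14.4% for Plg (Slc22a3, opposite strand) and 8.8% for Thpo (Chrd, opposite strand). Over all 10 libraries together, the expected counts were 16 for C1rb, 4 for C1s2 and 587 for C4a. They were 53283 for C1ra, 144256 for C1s1 and 143143 for C4b. For Serpind1, Serpinf2, Cpb2, C8b, C9, F12, F13b, C4bp, Vtn and Proc the share of 31-base sequences found in other genes was 0.0%, and for Masp1 it was 0.5%. Masp2 was also the member with the most variable transcript length in the deposited tables, from 1533 to 2065 bases, so its FPKM and its count moved by different amounts with PA.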

How the data were processed

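Each of the 10 libraries had 1 deposited table with an expected count and an FPKM per gene, both made by the authors with RSEM. The submitters' processing notes also name HISAT, Bowtie2 and mm10, with no versions. The deposited FPKM tables list a gene only from 0.01 upward in a library, and a missing gene was taken as 0. File names carry other library numbers than the labels, and the labels were followed. The deposited expected counts were rounded to whole numbers and fitted with edgeR 4.0.16 in R 4.3.3 (quasi-likelihood, TMM, filterByExpr), where 14097 genes passed and 3958 did not. A call took an adjusted p under 0.05 and a fold of at least 1.5. DESeq2 1.42.0, limma 3.58.1 on log2(FPKM + 1) and log2(FPKM + 0.1), and the NOISeq rule (probability 0.95, written from its published definition) were alternatives. GC content came from GENCODE transcripts for 99.2% of genes, with a loess span of 0.4 for the trend. Gene IDs were matched to RefSeq by ID (17998) or accession (11). Figures were drawn with matplotlib 3.10.9 in Python 3.11.15 with pandas 2.3.3. The fitting code was run on simulated counts with planted changes. These were drawn independently with the same spread for all genes and libraries. They do not hold the shift between replicates seen in the members or the wider spread of PA+NTP. With 2 libraries a group, an exact two-sided permutation test of 1 gene gives a p of 0.333 at the smallest and was not used.

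Values in every library are given for members called in at least 2 of the comparisons PA and LA against Vehicle and NTP within each FFA, for the most abundant member of each role and the 2 with the largest fold change, for all fibrinogen genes, and for members called in the other comparisons. This gave 18 members. The members and lists were chosen with earlier results of these data known. Other settings were tried for the members and not for the other lists. Some genes of the other lists are not reported here.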

Additional observations from a re-analysis of the deposited data

Results flagged for a closer look

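For 8 members the effects of the FFAs, each measured against the same Vehicle libraries, differed in a direct test of PA against LA. The log2 difference was -1.14 for Serpind1, -0.96 for F13b, -0.91 for Serpinf2, -0.87 for Serpinc1, -0.77 for C4bp, -0.75 for C8b, -0.67 for C9 and -0.60 for Masp1, in edgeR at an adjusted p under 0.05 and a fold of at least 1.5. Of all tested genes, 2.04% were called as lower with PA than with LA and 1.18% as higher. Without PA 2, C4bp (-0.57), C8b (-0.64), C9 (-0.43) and F13b (-0.67) lost their calls. C4bp, C9 and Masp1 lost theirs without other single libraries, as given above.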

How the results depend on the processing

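For PA against Vehicle the number of members called was 10, and it was 18 with no fold threshold, 0 under the NOISeq rule and 8 to 13 with 1 library left out. With LA it was 0, and 1 with library-size scaling, 1 with no filter, 1 in limma on log2(FPKM + 0.1), 1 with only the groups compared, 15 with no fold threshold and 0 to 2 with 1 library left out. With NTP under PA it was 2, and 5 with library-size scaling, 18 with no fold threshold, 0 under the NOISeq rule, 0 with the GC trend removed and 2 to 10 with 1 library left out. With NTP under LA it was 3, and 21 with no fold threshold, 0 under the NOISeq rule, 0 with the GC trend removed and 3 to 5 with 1 library left out. PA+NTP against Vehicle had 7, and 16 with no fold threshold, 0 under the NOISeq rule and 2 to 11 with 1 library left out. PA against LA had 8, and 18 with no fold threshold, 0 under the NOISeq rule and 4 to 12 with 1 library left out. LA+NTP against Vehicle and the difference between the NTP effects had 0 in edgeR under each setting run, and the NOISeq rule was not run on the latter. With no fold threshold, 3310 of all 14097 tested genes were called as higher and 3101 as lower with PA, and 2938 and 2886 with LA. With NTP these counts were 3060 and 3246 under PA, and 3646 and 3611 under LA. In PA+NTP against Vehicle they were 634 and 791, and in PA against LA 788 and 781. Library-size scaling called 360 and 1197 of all tested genes with LA, and 1492 and 518 with NTP under PA. The NOISeq rule called few of all 18055 genes: 5 as higher and 1 as lower with PA, and 8 and 2 with LA. It called 2 and 6 with NTP under PA, 1 and 8 with NTP under LA, and 1 and 0 in PA against LA. In PA+NTP against Vehicle it called 0 and 0, and in LA+NTP against Vehicle 0 and 1. No call reversed its direction under any of these settings. Apart from the missing fold threshold, the cause of these changes was not tested.

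The replicate numbers were not taken as pairs, since over all tested genes deviations of same-numbered libraries correlated at -0.069 to 0.127 over the 10 pairs of groups, although 34 to 40 of the 43 members lay higher in replicate 1 in each group. With the replicate block, 1 member (Mbl1, 0.69) was called with LA, 10 with PA, 11 in PA against LA, with C6 (-0.86), Klkb1 (-1.01) and Plg (-0.61) added, and 7 in PA+NTP against Vehicle. Of all tested genes, the block fit called 500 as higher and 1019 as lower with LA, and 857 and 1272 with PA. It called 175 and 303 in PA against LA, and 191 and 261 in PA+NTP against Vehicle. With the replicate block and the GC trend removed, 0 were called with NTP under PA and 0 under LA, 11 with PA, C6 (-0.68) among them, and 11 in PA against LA, where Masp1 (-0.57) lost its call. Of all tested genes, that fit called 587 as higher and 304 as lower with NTP under PA, and 533 and 290 under LA. It called 459 and 762 with PA, and 168 and 302 in PA against LA.

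Where 1 library was left out, the fit assumed for the lone library of that group the spread seen in the other groups. Depth differed 4.57-fold between the deepest and the shallowest library, and the SE with PA was largest for Mbl1 (0.35), Klkb1 (0.34) and C8g (0.30).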
